A study of Rattus norvegicus with 22 samples.

Results

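Dusp1, Sgk1 and Gadd45b are stress-responsive signalling genes that are known to respond to glucocorticoids, and they are described here in the liver of adult rat offspring. They are 3 of the 1434 rows in the deposited tables. Dusp1 stands in the table of males (1365 rows), and Sgk1 and Gadd45b stand in the table of females (69 rows). The members were selected on the MO against control difference within each table, and the tables themselves hold rows that the authors had listed for that difference. The differences between MO and control animals are therefore given as a description, without a test.

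The animals were Wistar rats at postnatal day 110, and each animal gave 1 liver library. The groups were 5 male offspring of mothers on an obesogenic diet (MO males) and 6 male offspring of mothers on the control diet (control males), and likewise 5 MO females and 6 control females. The diet was given to the mother, and the sources used here do not say which animals shared a litter, what the offspring ate or at which hour the liver was taken. Levels are in RPM, the reads of a transcript scaled to the reads of its library, recovered by subtracting the 1 that the deposited values carry. RPM is not scaled by transcript length, so levels are compared between animals and not between genes.

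Glucocorticoids are steroid hormones of the adrenal cortex that rise in stress and fasting and act through the glucocorticoid receptor, which binds DNA and changes transcription. In the liver they raise glucose production and dampen inflammatory signalling. Dusp1, also called MKP-1, is a nuclear phosphatase that switches off MAP kinases, the kinases that relay growth and stress signals. Sgk1 is a serine/threonine kinase that is activated through PI3 kinase and Pdpk1 and acts on ion transport and on FOXO transcription factors. Gadd45b binds Map3k4, a kinase upstream of the stress-activated MAP kinases, and in mouse liver it is known to be induced during regeneration.

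All 3 members were matched by symbol in the RefSeq promoter table (build GRCr8), and the 250 bases before the annotated start are shown because a glucocorticoid or stress signal would act through regulatory DNA. Capitals mark every match, on either strand, to the motifs searched. These were the glucocorticoid response element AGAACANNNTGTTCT, its AGAACA part, the cyclic AMP response element TGACGTCA, its TGACG part, the AP-1 site TGANTCA, the NF-kappaB site GGGNNTTTCC, the E-box CACGTG and the TATA box TATAAA. The AGAACA and TGACG motifs overlap the longer elements that contain them. The Dusp1 window lies at chr10:17184603-17184852 on the plus strand, the Gadd45b window at chr7:9430719-9430968 on the minus strand, and the 2 Sgk1 windows with a match at chr1:24807232-24807481 and chr1:24804832-24805081 on the minus strand.
Dusp1: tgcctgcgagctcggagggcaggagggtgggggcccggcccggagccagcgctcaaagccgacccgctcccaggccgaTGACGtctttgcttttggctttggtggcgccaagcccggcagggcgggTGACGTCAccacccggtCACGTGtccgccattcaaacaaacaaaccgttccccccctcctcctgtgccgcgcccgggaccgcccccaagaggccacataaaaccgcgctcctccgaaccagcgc
Gadd45b: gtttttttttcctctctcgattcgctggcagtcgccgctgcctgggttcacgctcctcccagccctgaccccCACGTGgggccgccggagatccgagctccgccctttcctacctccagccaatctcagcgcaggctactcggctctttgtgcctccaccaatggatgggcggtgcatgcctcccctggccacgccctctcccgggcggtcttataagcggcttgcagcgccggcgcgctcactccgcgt
Sgk1 start 1: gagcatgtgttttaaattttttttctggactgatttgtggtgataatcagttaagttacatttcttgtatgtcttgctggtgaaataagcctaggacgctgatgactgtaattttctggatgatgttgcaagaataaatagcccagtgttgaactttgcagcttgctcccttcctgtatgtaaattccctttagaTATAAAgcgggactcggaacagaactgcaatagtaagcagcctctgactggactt
Sgk1 start 3: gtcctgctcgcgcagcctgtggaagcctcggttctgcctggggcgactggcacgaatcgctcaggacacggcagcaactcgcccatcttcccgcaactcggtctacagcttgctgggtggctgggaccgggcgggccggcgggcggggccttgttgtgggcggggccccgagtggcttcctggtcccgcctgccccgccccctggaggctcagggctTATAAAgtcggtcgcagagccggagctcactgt

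The Dusp1 window held a full cyclic AMP response element, with its first base 124 bases before the start, a further TGACG at 172 bases and an E-box at 107 bases. The full element is found in 1.59% of the 33469 annotated windows of this length, TGACG in 18.2% and the E-box in 5.59%. The Gadd45b window held an E-box at 178 bases before the start and no other motif searched. RefSeq lists 3 starts for Sgk1, and the windows of 2 of them held a TATA box (12.9% of windows), at 55 and 33 bases, while the window not printed held none of the motifs. The promoter table does not say which of these starts belongs to the Sgk1 transcript in the deposited table. The glucocorticoid response element as spelled above stood in 4 of the 33469 windows (0.012%), and AGAACA in 17.5%. Neither was found in these windows of the 3 members. AP-1 and NF-kappaB motifs, present in 6.34% and 1.3% of windows, were also not found there.

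The windows of other listed genes were read in the same way, as a description. Of the 33 matched genes that were higher in MO males, 9 held an E-box in at least 1 window (27.3%), against 81 of the 969 matched genes that were lower in MO males (8.36%). The full cyclic AMP response element was held by 3 of the 33 higher genes (9.09%), Dusp1 among them, and by 19 of the 969 lower genes (1.96%). AGAACA went the other way, in 6.06% of the higher and 13.4% of the lower genes. The shares were 33.3% and 25.0% for TGACG, 12.1% and 8.15% for the TATA box, and 6.06% and 4.95% for AP-1. They were 0.0% and 1.34% for NF-kappaB. In females the E-box was held by 12.1% of the higher and 13.3% of the lower matched genes. The full cyclic AMP response element (0.0% and 6.67%) and AGAACA (15.2% and 13.3%) also went against the male direction there. The other female shares were 12.1% and 6.67% for TGACG, 12.1% and 13.3% for the TATA box, 9.09% and 6.67% for AP-1 and 3.03% and 0.0% for NF-kappaB. Whether any of these shares differ was not tested. A match is a run of letters and does not show that a factor binds there.

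Dusp1 was the member measured most precisely, with about 583 to 2311 reads per library. In MO males its level was 208.38, 128.01, 107.98, 109.29 and 81.55 RPM (animals 1 to 5). In control males it was 76.14, 71.44, 66.97, 73.91, 62.58 and 104.25 RPM (animals 1 to 6). MO males 1, 2, 3 and 4 were above every control, and MO male 5 was above every control but control male 6, so the groups overlapped by a single pair of animals. At least 4 of 5 MO animals lay above every control in 1.76% of the male rows, a share that says nothing of Dusp1 because the rows were chosen on this contrast.

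The mean Dusp1 level was 127.0 ± 48.4 RPM in MO males (SD, n = 5) and 75.9 ± 14.7 RPM in control males (SD, n = 6). On the log2(RPM + 1) scale the difference, MO minus control, was 0.68 ± 0.21 (SE), a 1.61-fold higher level in MO males. It ranked 30 among the 48 male rows that were higher in MO animals, in a table where 1317 rows were lower. The spread was wider among MO males, with a coefficient of variation of 38.1% against 19.4% among control males. In whole liver, more cells with the transcript and more of it per cell cannot be told apart.

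**Figure D1:**
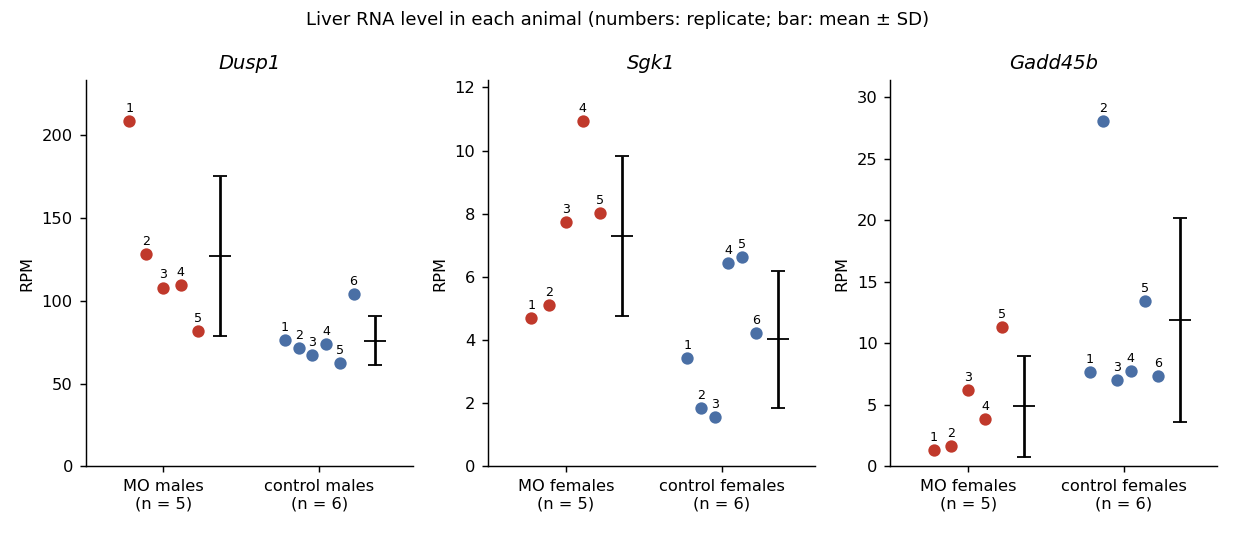
RPM of Dusp1 in males and of Sgk1 and Gadd45b in females, 1 point per animal with its replicate number, MO animals in red and controls in blue, and the mean ± SD as a black bar; each vertical axis starts at 0. Each panel shows overlap between the groups: MO male 5 lies below control male 6 for Dusp1, MO females 1 and 2 lie within the control range for Sgk1, and MO female 5 lies within it for Gadd45b.

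The male libraries differed in what the listed rows as a whole took up, and Dusp1 is read beside that. The rows of the male table summed to 6.58% to 8.69% of all reads in MO males and 9.69% to 15.32% in control males, and the median difference over the table was -0.58 on the log2 scale. With each library centred on its median over the table, the Dusp1 difference became 1.27 ± 0.17 (SE). That median belongs to rows listed mostly because they were lower, so it is no neutral baseline. Rmrp, an RNA without a poly(A) tail, set the control males apart from each other. Its level was 1.71 to 3.11 RPM in MO males. Control males 1 and 5 had 1.2 and 1.52 RPM of it, while control males 2, 3, 4 and 6 had 36.87 to 51.22 RPM. Against control males 1 and 5 alone the Dusp1 difference was 0.80 ± 0.29 (SE).

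Markers of other liver cell types were all lower where they were listed, as were 96.5% of male rows. The male table held 8 of 75 such markers (4 of stellate cells and fibroblasts, 2 of bile duct cells, 1 of endothelial cells and 1 of lymphocytes), with a summed level of 49.29 to 64.21 RPM in MO males and 76.5 to 94.16 RPM in control males. None of the Kupffer cell, neutrophil or erythroid symbols among them was listed, and the female table held 0 of the 75. Markers were matched by symbol, so a marker transcript listed under another symbol would be missed. The part of other cell types in the Dusp1 difference was not tested. Of the 10 hepatocyte markers, the male table held Cps1, the first enzyme of the urea cycle, which averaged 857 ± 51.5 RPM in MO males (SD, n = 5) and 1265 ± 362 RPM in control males (SD, n = 6).

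Sgk1 was measured on a much thinner base of about 52 to 124 reads per library in MO females and 17 to 78 in control females. Its level was 4.69, 5.10, 7.74, 10.93 and 8.01 RPM in MO females (animals 1 to 5). In control females it was 3.42, 1.86, 1.56, 6.43, 6.64 and 4.21 RPM (animals 1 to 6). MO females 3, 4 and 5 were above every control, while MO females 1 and 2 lay below control females 4 and 5.

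The mean Sgk1 level was 7.29 ± 2.53 RPM in MO females (SD, n = 5) and 4.02 ± 2.18 RPM in control females (SD, n = 6). The difference was 0.79 ± 0.39 on the log2(RPM + 1) scale (SE), a 1.73-fold higher value of RPM + 1 in MO females. It ranked 21 among the 45 female rows that were higher in MO animals, and the median difference over the table was 0.59. With libraries centred the Sgk1 difference was 0.57 ± 0.33 (SE). The female median also belongs to listed rows, so it is no neutral baseline. All 5 MO females were above the control mean, and 26 of the 30 pairs of an MO and a control female had the MO animal higher. At least 3 of 5 MO animals lay above every control in 47.8% of the female rows. The row carries transcript NM_001193569, 1 of 3 curated Sgk1 transcripts in RefSeq, and the levels of the other transcripts were not analysed here.

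The Sgk1 row differed from the statistics beside it. The authors' deposited table gives it a log2 difference of 0.607 and a p-value of 0.16519, the largest p-value among the 69 rows. It is 1 of 2 female rows with a deposited p-value of at least 0.05, and the deposited difference was recovered within 0.01 for 67 of the 69 rows. The values per animal give a log2 difference of 0.79, and leaving out any of the 11 animals gave 0.625 to 0.94, with 0 of 11 values within 0.005 of the deposited one. For Dusp1 and Gadd45b the deposited differences, 0.683 and -1.221 in the authors' deposited table with its sign column, were recovered from the values per animal. Every Sgk1 difference here rests on the values per animal, and the origin of the deposited statistics of that row is not known.

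Gadd45b went the other way from Sgk1 in the same females. Its level was 1.36, 1.64, 6.21, 3.87 and 11.36 RPM in MO females (animals 1 to 5), or about 15 to 133 reads. In control females it was 7.63, 28.05, 7.0, 7.73, 13.41 and 7.35 RPM (animals 1 to 6), or about 70 to 316 reads. MO females 1, 2, 3 and 4 were below every control. MO female 5 lay above 4 of the 6 controls, among which control female 2 stood far above the rest.

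The mean Gadd45b level was 4.89 ± 4.11 RPM in MO females (SD, n = 5) and 11.9 ± 8.29 RPM in control females (SD, n = 6). The difference was -1.22 ± 0.46 on the log2(RPM + 1) scale (SE), so RPM + 1 in MO females was 0.429 of that in control females. At least 4 of 5 MO animals lay below every control in 13.0% of the female rows. Gadd45b varied more within groups than most rows: its within-group SD on the log2 scale was 0.863, against a median of 0.517 over the table, and ranked 9 of 69. The Sgk1 SD was 0.578, which ranked 31 of 69.

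**Figure D2:**
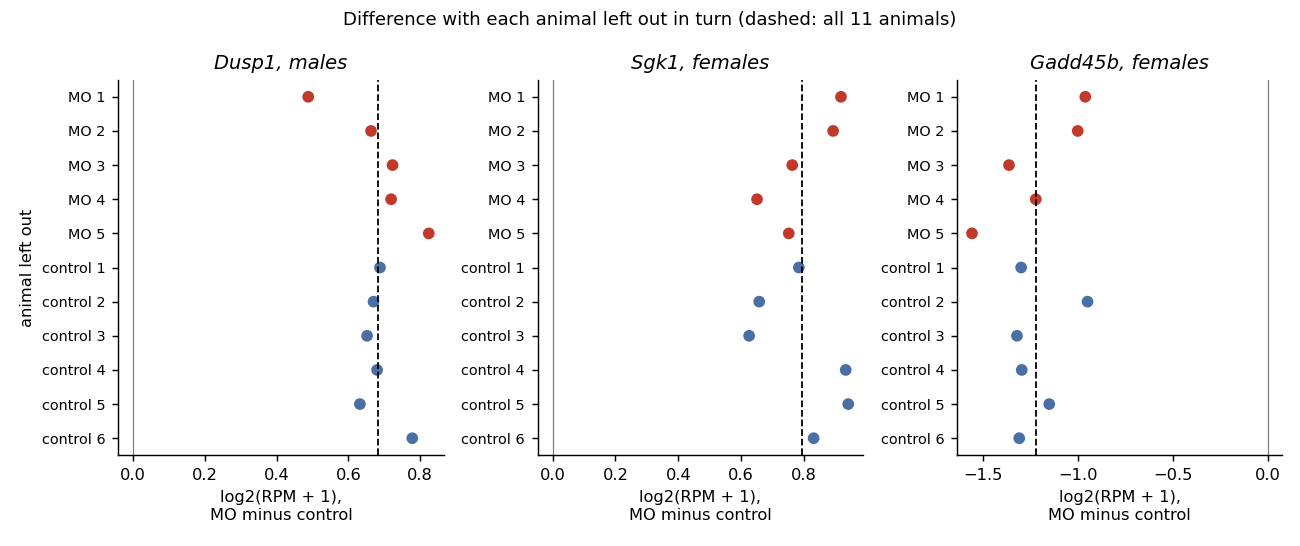
Difference in log2(RPM + 1), MO minus control, recomputed with each of the 11 animals of a table left out, MO animals in red above controls in blue; the dashed line is the value from all animals and the grey line is 0. Values ran from 0.488 to 0.824 for Dusp1, from 0.625 to 0.94 for Sgk1 and from -1.558 to -0.949 for Gadd45b.

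Single animals moved each difference. The lowest Dusp1 difference, 0.49, came without MO male 1, which had the highest level. The Gadd45b difference was smallest, at -0.95, without control female 2 and largest, at -1.56, without MO female 5. The Sgk1 difference was smallest, at 0.62, without control female 3, which had the lowest level.

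Other genes known to be induced by glucocorticoids in liver went both ways in each table. The list of such genes held 40 symbols, including the 3 members. Besides Dusp1 the male table held 4 of them, of which 3 rose and 1 fell by limma with Benjamini-Hochberg adjustment over the table. Such calls covered every male row, 3.52% higher and 96.5% lower, so a call adds nothing to the listing and only the direction and size are informative. Pdk4, the kinase that inhibits pyruvate dehydrogenase, was at 33.14 to 80.34 RPM in MO males and 10.56 to 18.26 RPM in control males, a difference of 1.66 ± 0.21 (SE) on the log2 scale. Angptl4, an inhibitor of lipoprotein lipase, differed by 0.97 ± 0.20 (SE) and the insulin receptor substrate Irs2 by 0.65 ± 0.23 (SE). Tdo2, which opens the breakdown of tryptophan, was at 412.87 to 799.92 RPM in MO males and 547.65 to 1834.43 RPM in control males, a difference of -0.96 ± 0.27 (SE). With libraries centred it was at -0.38 and was no longer called (limma adjusted p = 0.997), while Pdk4, Angptl4 and Irs2 were. Centring left 48 male rows called higher and 24 called lower, against 48 and 1317 without it. Whether a male row kept its call, here and in the lists below, therefore followed largely from its direction. The lost call does not set Tdo2 apart from the other 3 genes.

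In females the same list gave 3 genes besides Sgk1 and Gadd45b. Limma called 50.7% of the female rows higher and 30.4% lower, and Mt2A and Mt1a, metal-binding proteins of the metallothionein family, were among the higher and Igfbp1, which binds insulin-like growth factors, among the lower. Their log2 differences were 1.98 ± 0.67, 1.57 ± 0.63 and -1.93 ± 0.60 (SE). Sgk1 was not among the female rows called, and with Gadd45b counted the list gave 2 genes called higher, 2 called lower and 1 not called. The list holds the members, which were chosen on this contrast, so its counts are no separate evidence of a direction. Serpina6, the plasma carrier of corticosteroids, was the gene of the list of glucocorticoid supply and receptor machinery (27 symbols) that stood in a table. It averaged 414 ± 57.3 RPM in MO males (SD, n = 5) and 636 ± 152 RPM in control males (SD, n = 6), and its difference of -0.59 ± 0.19 (SE) was that of the table's median and became -0.01 with libraries centred.

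The MAP kinase genes, whose products Dusp1 and Gadd45b act on, were listed in males alone. The male table held 3 of 24 MAP kinase phosphatases and related phosphatases. Dusp1 was higher, and Dusp23 (-0.48 ± 0.18, SE) and the protein phosphatase Ppm1b (-0.67 ± 0.22, SE) were lower. Of 53 genes of the kinase cascades 5 were listed, of which 1 rose and 4 fell. Among all male rows 3.52% were higher and 96.5% lower, so mostly lower genes say nothing of these lists. Mapkapk3, a kinase downstream of stress-activated MAP kinases, was at 5.47 to 14.34 RPM in MO males and 2.41 to 6.69 RPM in control males, a difference of 0.96 ± 0.23 (SE). The 4 lower genes were the MAP kinases Mapk3 (-0.54 ± 0.18, SE) and Mapk9, the adaptor Tab1 (-0.54 ± 0.17, SE) and Rps6ka4 (-0.50 ± 0.17, SE), a nuclear kinase that MAP kinases activate. Mapk9, a JNK kinase, had 2 listed transcripts at -0.56 and -0.57. With libraries centred these 4 genes were at 0.01 to 0.08, so their direction turned, as did that of Dusp23 (0.10), while Mapkapk3 was at 1.55 and Ppm1b at -0.08.

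Of the genes around the SGK kinases, 4 were listed in males and all 4 were lower, in a table where 96.5% of rows were called lower, and Sgk2 alone was still called with libraries centred. Sgk2, a close relative of Sgk1 that is expressed in liver, was at 6.67, 6.46, 6.70, 10.85 and 6.90 RPM in MO males (animals 1 to 5). In control males it was at 14.79, 21.02, 27.01, 12.80, 13.43 and 38.15 RPM (animals 1 to 6). Every MO male was thus below every control, as was also so for Serpina6, Atf6b, Tnip1, Npas2 and the stellate cell marker Pdgfrb. For Pdk4, Angptl4 and Wee1 every MO male was above every control. The share of male rows without overlap was not counted. The rows were chosen on this contrast, so the lack of overlap does not set Sgk2 apart. The Sgk2 difference was -1.30 ± 0.24 (SE; limma adjusted p = 0.000606), in a table where every row was called. It stayed lower, at -0.71, with libraries centred (limma adjusted p = 0.038).

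Of the 37 symbols of the SGK and AKT branch, 3 further genes fell in males. Scnn1a, a subunit of the epithelial sodium channel that SGK kinases regulate, differed by -0.98 ± 0.27 (SE), and by -0.39 with libraries centred (limma adjusted p = 0.93). Ndrg2, of the family that includes SGK substrates, had 3 listed transcripts at -0.51, -0.68 and -1.17, which were at 0.07, -0.10 and -0.58 with libraries centred and not called (limma adjusted p of 0.878 to 0.997). Pdpk1, the kinase that activates SGK and AKT kinases, was at 0.85 to 1.55 RPM in MO males and 1.30 to 3.29 RPM in control males. Its difference of -0.49 ± 0.18 (SE) turned to 0.09 with libraries centred. In females Sgk1 was the listed gene of this branch.

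**Figure D3:**
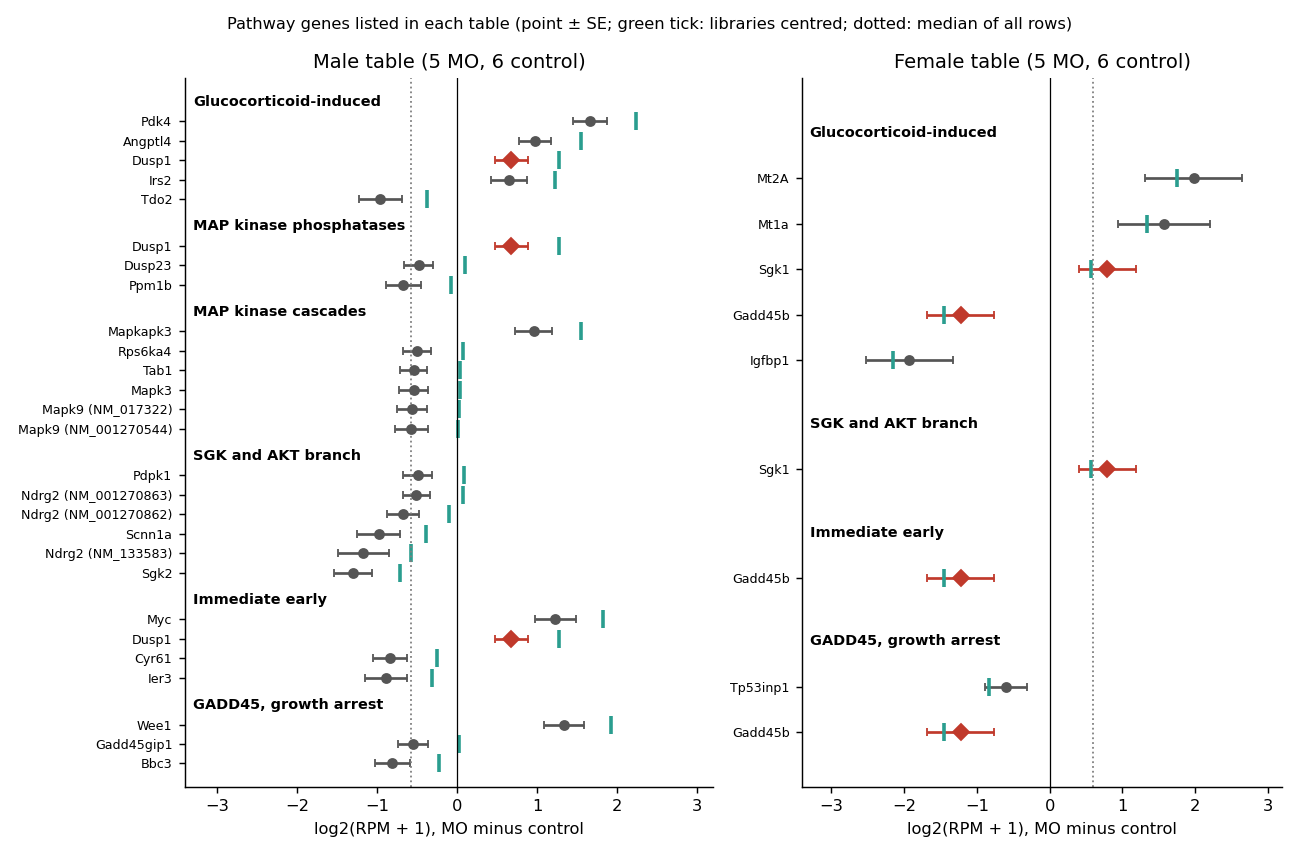
Difference in log2(RPM + 1), MO minus control, with its SE for every row of 6 gene lists that stood in the male or female table; red diamonds are Dusp1, Sgk1 and Gadd45b, green ticks are the same difference with libraries centred on their medians, and the dotted line is the median of all rows (-0.58 in males, 0.59 in females). Centring moves the male values up, so that the 5 male transcripts of Mapk3, Mapk9, Tab1 and Rps6ka4 end at 0.01 to 0.08 while Sgk2 stays at -0.71.

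Immediate early genes are those that respond to a signal without new protein synthesis, and Dusp1 and Gadd45b are both among them. Of the 42 symbols of that list the male table held Dusp1 and 3 others, of which 1 rose and 2 fell. Among all male rows 3.52% were higher and 96.5% lower. The transcription factor Myc was at 12.53 to 24.16 RPM in MO males and 4.12 to 16.37 RPM in control males, a difference of 1.23 ± 0.26 (SE). Ier3 (-0.89 ± 0.26, SE) and Cyr61, a secreted matrix protein (-0.84 ± 0.21, SE), were lower. With libraries centred they were at -0.31 and -0.25 and were not called (limma adjusted p = 0.997 for both). Fos, Jun and Egr1, the classical members, stood in neither table. In females Gadd45b was the listed immediate early gene.

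Among 38 symbols of the GADD45 family and of growth arrest, no other GADD45 gene was listed in either table. Gadd45gip1, which binds GADD45 proteins, was at -0.55 ± 0.19 (SE) in males and at 0.03 with libraries centred. The cell cycle kinase Wee1 was higher (1.34 ± 0.25, SE) and Bbc3, which promotes apoptosis, was lower (-0.81 ± 0.22, SE), though at -0.23 and not called with libraries centred (limma adjusted p = 0.997). Tp53inp1, a p53-induced gene, averaged 1.23 ± 0.724 RPM in MO females (SD, n = 5) and 2.35 ± 0.922 RPM in control females (SD, n = 6). Its difference was -0.60 ± 0.29 (SE), which did not pass over the female table (limma adjusted p = 0.058). With libraries centred it was -0.83 and was called (limma adjusted p = 0.0028). The female table held 24 lower rows, and centring left 24 rows called lower, against 21 without it. That call therefore followed from the direction of the row and says nothing of Tp53inp1.

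The remaining stress lists had few listed genes, all in males and all lower, as were 96.5% of male rows. They were Creld2 and Atf6b of the unfolded protein response (2 of 35 symbols), the small heat shock protein Hspb6 (1 of 30) and Tnip1, an inhibitor of NF-kappaB signalling (1 of 31). Their differences ran from -0.50 to -0.77, and with libraries centred from -0.19 to 0.08, where none was called (limma adjusted p = 0.997 for each). Of 22 clock genes the male table held Npas2, Cry2 and Wee1. Npas2 was at 0.09 to 1.04 RPM in MO males and 2.3 to 10.65 RPM in control males. The hour of collection is not given in the sources used here, and its part in the Dusp1 difference was not tested.

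The members were next followed within groups, as deviations of each animal from its group mean, since these do not depend on the difference between groups. Relations of the members with each other and with the listed glucocorticoid-induced genes gave 11 pairs, each over 11 animals, tested with all 86400 rearrangements of animals within groups. Gadd45b and Igfbp1 varied together, with a Pearson r of 0.74 (exact permutation p = 0.023, adjusted over the 11 pairs 0.26) and a Spearman rho of 0.77 (exact permutation p = 0.017, adjusted 0.18). The relation therefore did not pass the adjustment. Gadd45b also varied with many other rows of the female table. Its median r over them was 0.455, and 0.184 with libraries centred. An r of at least 0.7 was found for 8 rows, and for 2 with libraries centred. It had r = 0.67 without the 2 females farthest from the median of Gadd45b (exact permutation p = 0.082) and 0.64 with libraries centred (exact permutation p = 0.047).

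The animals behind that relation can be read from the levels. Igfbp1 was at 31.65, 51.03, 216.74, 49.33 and 132.94 RPM in MO females (animals 1 to 5) and at 155.0, 589.69, 138.69, 299.75, 292.53 and 499.34 RPM in control females (animals 1 to 6). MO females 1 and 2 were low and MO females 3 and 5 high for both genes, and control female 2 was the highest control for both. Control female 6 went against the relation, with the second highest Igfbp1 and the second lowest Gadd45b of the controls, and without it r was 0.84.

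Sgk1 did not follow Gadd45b within groups in a way these 11 animals could show. Their Pearson r was 0.13 (exact permutation p = 0.70, adjusted 0.77) and their Spearman rho 0.29 (exact permutation p = 0.37, adjusted 0.72), with r = 0.62 without the 2 females farthest from the median of Sgk1 (exact permutation p = 0.11). The Pearson r of Sgk1 was 0.24 with Igfbp1, 0.20 with Mt2A and 0.14 with Mt1a, and that of Gadd45b was 0.47 with Mt2A and 0.44 with Mt1a. The median r over the other female rows was 0.221 for Sgk1 and 0.455 for Gadd45b. Dusp1 had a Pearson r of -0.03 with Pdk4, -0.17 with Angptl4, 0.36 with Tdo2 and 0.28 with Irs2. For these 9 pairs the adjusted exact permutation p was 0.66 to 0.94 (Pearson) and 0.47 to 0.99 (Spearman).

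**Figure D4:**
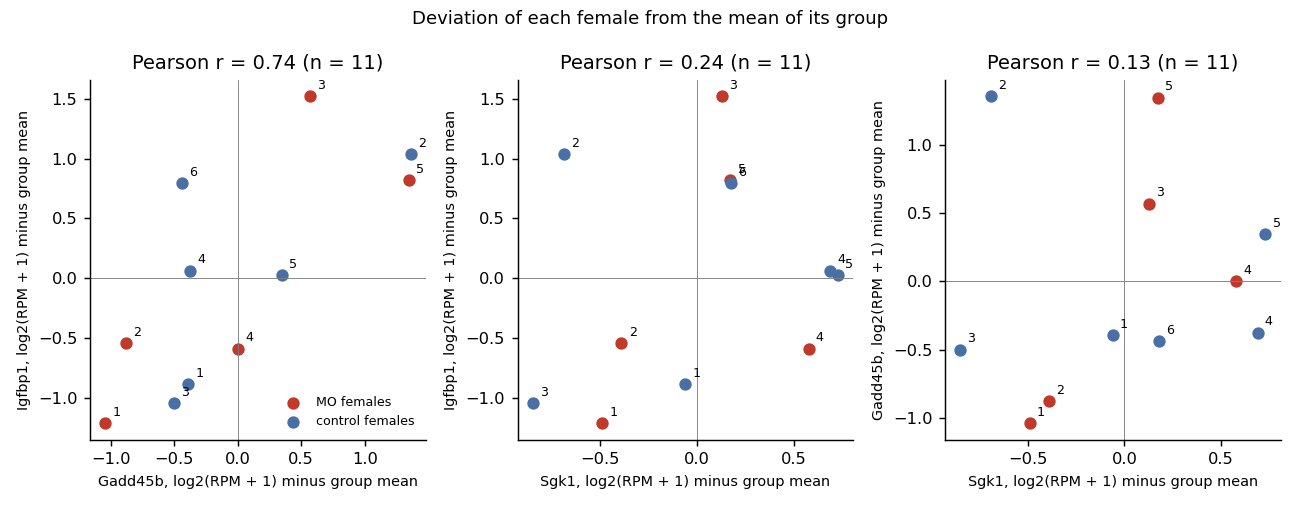
Deviation of each female from the mean of its group in log2(RPM + 1), for Gadd45b against Igfbp1, Sgk1 against Igfbp1 and Sgk1 against Gadd45b, with MO females in red, control females in blue and the replicate number beside each point. The points of Gadd45b and Igfbp1 run from low in both to high in both (r = 0.74), and those of the other panels are scattered (r = 0.24 and 0.13).

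The rows most like each member were found over the same within-group deviations of 11 animals, as a description. Dusp1 was most like Ppib, a peptidyl-prolyl isomerase of the endoplasmic reticulum (Pearson r = 0.90), Nabp2 (r = 0.89), which binds DNA, and Tmem53 (r = 0.87). It was least like Ddah2 (r = -0.64), Me3 (r = -0.63) and Ptprn (r = -0.59). Ddah2 averaged 0.6 RPM in MO males and 1.65 RPM in control males, where a few reads set a value. Ppib, Nabp2 and Tmem53 were lower in MO males, by -0.50 to -0.53 on the log2 scale, as were 96.5% of male rows. They followed Dusp1 from animal to animal within groups. Their opposite direction between groups was that of nearly every male row and does not set them apart. All rows share the library, and Dusp1 itself had r = 0.51 with the library medians. With libraries centred the 3 values were 0.85, 0.85 and 0.73, and the number of male rows with r of at least 0.7 went down to 34, against 90 on the deposited scale.

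Sgk1 was most like LOC100134871 (r = 0.74), the chemokine-scavenging receptor Ackr2 (r = 0.69) and the calcium pump Atp2a2 (r = 0.66), and least like Obp3 (r = -0.57), Olr35 (r = -0.31) and Pparg (r = -0.30). With libraries centred LOC100134871 was at 0.77 and Atp2a2 at 0.37, and the value for Pparg turned to 0.06. Gadd45b was most like the receptor Ror1 (r = 0.79), the ribonucleotide reductase subunit Rrm2b (r = 0.76) and the transcription factor Runx2 (r = 0.75), and among the rows least like it were Sstr3 (r = -0.60) and Pparg (r = -0.53). Runx2 was at 0.47 with libraries centred. The mean level of Rrm2b was 0.67 RPM in MO females and 1.38 RPM in control females, where a few reads set a value.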

How the data were processed

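Liver RNA of 22 animals was sequenced. STAR 2.3.1j, Partek and build rn5 appear in the submitters' processing notes, without their roles. For each animal the authors deposited RPM (reads scaled to the library) with 1 added, as inferred from the values. The deposited p-values are unadjusted, and the deposited fold column gives the size of a log2 difference. Steps between low values (under 9 RPM) put depth at 10530000 to 11590000 reads in MO males and 7890000 to 11170000 in control males. In females it was 10470000 to 11710000 in MO animals and 9180000 to 11770000 in controls. Control males 2, 3, 4 and 6, with high Rmrp, had 8700000, 8960000, 7890000 and 9410000 reads, fewer than control males 1 and 5 (10010000 and 11170000). A part of depth in the differences was not tested. Of the low values, 54.9% to 86.6% were whole reads (within 0.02 of a read), so no count model was used, although counts had been allowed for.

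Each table was fitted with limma 3.58.1 (R 4.3.3) on log2(RPM + 1) without a filter, and p-values were adjusted over the whole table at 0.05. Because rows had been listed for a difference, such p-values are too small to read as discovery rates. Litters are not given, so errors measure the spread between these animals. Within-group correlations used exact permutations. The limma fit and the within-group permutation test were tested on simulated data. Named genes were the members, the 4 largest differences in each direction in 6 lists, and the 3 most and least similar rows per member, of which 1 is not reported here. The remaining lists were small enough to be named in full. Members and lists were chosen with earlier results of these data known. Alternatives were a pseudocount of 0.5, library centring, a replicate block, leaving out animals, medians, a filter at 1 RPM, no trend, exact permutation and control males 1 and 5 alone.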

Additional observations from a re-analysis of the deposited data

Results flagged for a closer look

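Control male 6 was far from the other control males for Dusp1. Its 104.25 RPM lay above the next control by 0.675 of the group's range, past the Dixon limit of 0.625 for 6 animals, and on the log2 scale the gap was 0.616 of the range, just under it. Control female 2 was far from the other control females for Gadd45b, at 28.05 RPM, with a gap of 0.696 of the range, and 0.544 on the log2 scale. Of the 6 groups of values examined 2 were marked on the RPM scale, and neither of these passed the limit on the log2 scale. The limit marks about 1 group in 20 by chance if values are normally distributed, which was not checked for RPM.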

How the results depend on the processing

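The differences of Dusp1, Sgk1 and Gadd45b kept their sign under every alternative run. That is little evidence, since the members were chosen on this contrast. The Dusp1 difference moved to 1.27 with libraries centred. Leaving out each animal gave 0.488 to 0.824 for Dusp1, 0.625 to 0.94 for Sgk1 and -1.558 to -0.949 for Gadd45b. The cause of these shifts was not tested. Of the male rows, 1365 were called, 1282 to 1364 without each animal, 72 with libraries centred (48 higher, 24 lower) and 531 against control males 1 and 5 alone, with fewer animals. Of the female rows, 56 were called (35 higher, 21 lower), 34 to 53 without each animal (34 without MO female 2 and 37 without MO female 5), 45 with libraries centred (21 higher, 24 lower) and 4 by the exact permutation test, with 62 at an unadjusted p under 0.05. With the replicate number as a block, 1344 male and 26 female rows were called, and Dusp1, Sgk1 and Gadd45b differed by 0.78, 0.83 and -1.31. The labels give no pairing, 0 of 5 MO males and 3 of 5 MO females correlated best with the control of their own number, and correlations within pairs ran from -0.098 to 0.154 in males and -0.421 to 0.333 in females.

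Within-group r changed sign with libraries centred for Sgk1 with Gadd45b (-0.034), Igfbp1 (-0.003), Mt2A (-0.072) and Mt1a (-0.24) and for Dusp1 with Tdo2 (-0.007) and Irs2 (-0.10), and without the 2 farthest animals for Dusp1 with Tdo2 (-0.12) and Irs2 (-0.53). Leaving out each animal, added after the data were seen, gave -0.012 to 0.518 for Sgk1 and Gadd45b, -0.123 to 0.521 for Sgk1 and Mt2A, -0.19 to 0.419 for Sgk1 and Mt1a, -0.213 to 0.56 for Dusp1 and Pdk4 and -0.473 to 0.186 for Dusp1 and Angptl4. For Gadd45b and Igfbp1 it gave 0.669 to 0.844, with exact permutation p-values of 0.085 without control female 2 and 0.059 without MO female 1. At 17 to 124 reads per library, Sgk1 is limited by depth as well as by the number of animals.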
